A study of Mus musculus with 21 samples.

Results

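Nr0b1, Tcl1, Nr5a2 and Gbx2 are 4 genes of naive mouse embryonic stem cells, taken by symbol from a table of 16443 genes. They were picked because earlier results from these same data had them lower in cells carrying a SOX17-based factor than in cells with SOX2. Differences between those lines are therefore given as a description with no test. For the 4 genes, tests are given only for the change between media within a line and the difference between the 2 SOX17-based lines, neither of which chose them. Genes of related lists are tested against SOX2 in a fit over all genes. Those lists were also chosen with earlier results of these data known, so their tests are not independent support.

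RNA was measured in 21 libraries of 2TS22C cells, which are mouse embryonic stem cells whose SOX2 is shut off by doxycycline. In the miniSOX and FNV lines the cells were treated with doxycycline (DOX), their endogenous SOX2 was labelled as silenced, and a lentivirus supplied the labelled factor, which for FNV is SOX17FNV. The SOX2 line had the same silencing and DOX treatment, with SOX2 supplied by lentivirus. The NTC line was not transduced, is labelled WT, and has no DOX listed. Each line was grown in serum and LIF (SL) and in the same kind of medium with 2i, which denotes inhibitors of the MEK and GSK3 kinases. There were 2 miniSOX, 4 FNV, 4 SOX2 and 3 NTC libraries in 2i, and each line had 2 in SL. The titles of 5 of the 2i libraries of FNV, SOX2 and NTC call them biological replicates. The other libraries, called numbered replicates here, are titled only as replicates with a number. The labels name 1 cell line and do not state whether numbered replicates are different cultures. The p-values thus reflect only how these libraries vary, and that variation may be technical.

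The values are scores, whole numbers that the authors brought to the same distribution in every library, and the median score was 214 in each. Read depth is unknown. Libraries came in 2 deposit sets: the first holds 12 libraries of FNV, SOX2 and NTC, and the second holds all miniSOX libraries and 5 further 2i libraries (columns named p21 and p31). All tests carried a term for the set, and that term rests on the 2i libraries, because in SL each line comes from 1 set. Every comparison of miniSOX with another line in SL therefore sets 1 deposit set against the other. No miniSOX library informs the set term, which comes from FNV, SOX2 and NTC. Its use for miniSOX assumes the same difference between sets there, which was not tested.

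In naive embryonic stem cells, OCT4 and SOX2 bind composite DNA sites together with other naive factors and keep a self-renewal network active. Nr0b1 (DAX1) encodes an orphan nuclear receptor without the usual DNA-binding domain that binds to OCT4 and Nr5a2 in mouse embryonic stem cells. Nr5a2 (LRH-1) encodes an orphan nuclear receptor that binds regulatory DNA of Pou5f1, the gene for OCT4. Tcl1 encodes a co-activator of the AKT kinases, and Gbx2 encodes a homeobox factor downstream of LIF and STAT3 signalling.

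The labels were checked on the factors themselves. The Sox2 score was 47 and 60 in miniSOX and 19 to 43 in FNV in 2i, against 939 to 1509 in SOX2 and 1310 to 2697 in NTC. In SL, Sox2 was at 48 and 55 in miniSOX and 33 and 49 in FNV, against 921 and 1389 in SOX2 and 533 and 843 in NTC. Sox17 was at 1813 to 4179 in miniSOX and 1792 to 30391 in FNV, and did not exceed 6 in any SOX2 or NTC library. Pou5f1 scored 8024 to 10050 in miniSOX, 9102 to 12486 in FNV, 7059 to 16422 in SOX2 and 6245 to 10739 in NTC. All 9 embryonic stem cell markers looked for were above 0 in every group. Against SOX2 in 2i, 1 was higher and 3 lower in FNV (limma adjusted p under 0.05), against 12.4% and 12.9% of all genes. In SL, 1 was higher and 0 lower in FNV, against 10.2% and 11.2% of all genes. In miniSOX 0 passed in either medium, against 7.32% higher and 7.57% lower of all genes in 2i and 10.4% and 11.2% in SL. Counts of 0 or 1 lie close to these shares and are no result about the markers.

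The description that these genes need SOX2 did not hold for all of them in both media. Nr0b1 was lower in every miniSOX and FNV library than in every SOX2 and NTC library of the same medium. Gbx2 followed that pattern apart from a small overlap in 2i. Tcl1 followed it in 2i, but in SL its score in FNV was at the level of the SOX2 line. Nr5a2 followed it in neither medium, since the FNV and SOX2 ranges overlapped in 2i and the FNV and NTC ranges overlapped in SL. In these bulk samples, fewer cells that express a gene and less RNA per cell cannot be told apart.

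**Figure D1:**
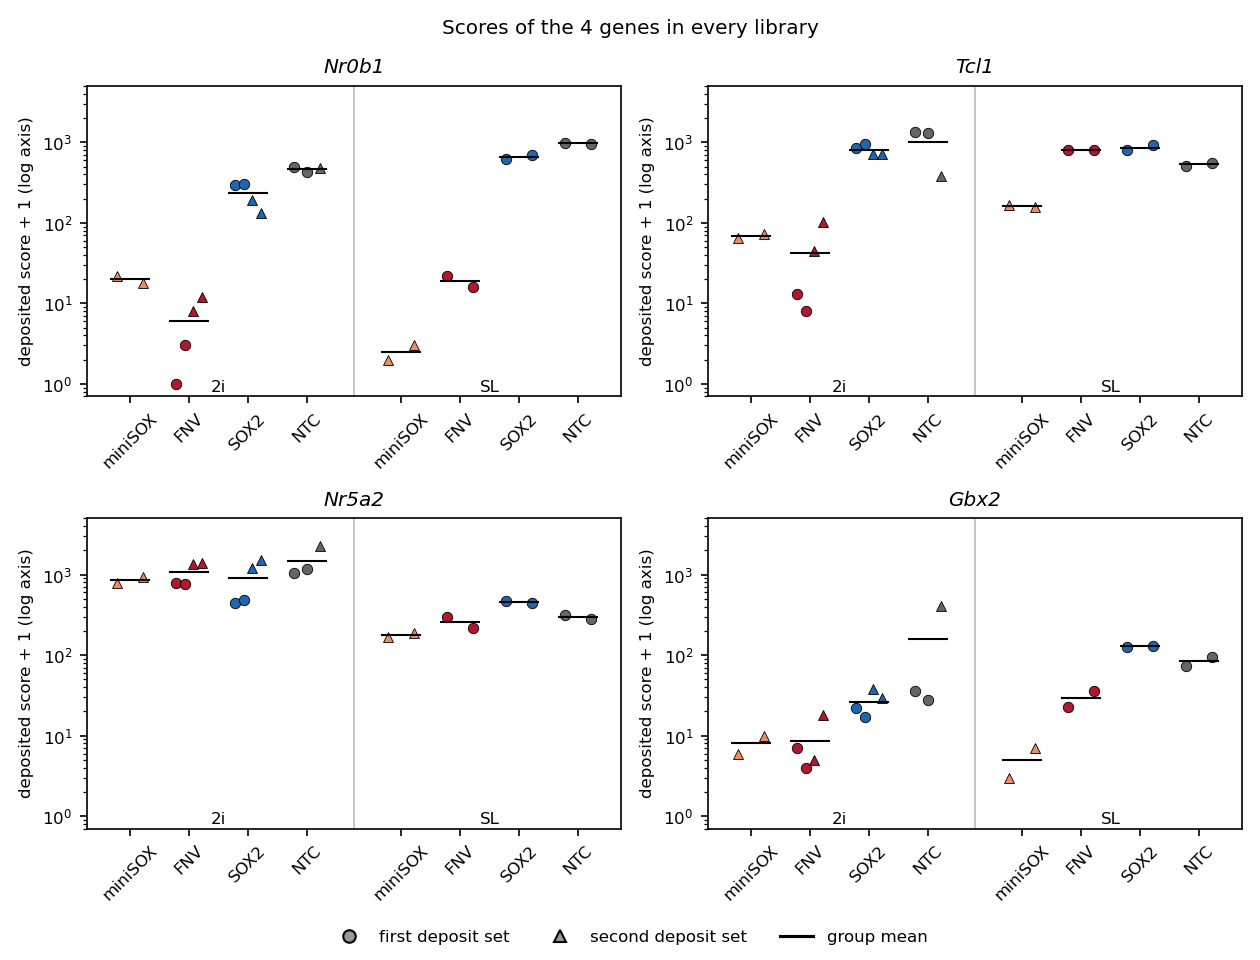
Deposited score plus 1 (log axis) of Nr0b1, Tcl1, Nr5a2 and Gbx2 in each of the 21 libraries, with 2i on the left of each panel and SL on the right. Circles are the first deposit set, triangles the second, and black lines the group means. Nr0b1 lies at 0 to 21 in all miniSOX and FNV libraries and at 133 to 976 in all SOX2 and NTC libraries, whereas the Nr5a2 groups overlap in 2i.

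Nr0b1 lies on chromosome X at 86191764 to 86195947 on the plus strand (GRCm38, GENCODE M21), with 1 annotated transcript of 2 exons. In 2i its score was 21 and 17 in miniSOX and 0, 2, 7 and 11 in FNV, against 297, 301, 193 and 133 in SOX2 and 486, 430 and 483 in NTC. In SL the Nr0b1 score was 1 and 2 in miniSOX and 21 and 15 in FNV, against 617 and 697 in SOX2 and 976 and 958 in NTC. The SOX17-based lines were low in both media, and no library of theirs came near the lowest SOX2 library. The order of the group means was NTC in SL, SOX2 in SL, NTC in 2i and SOX2 in 2i, and the ranges of these neighbours did not overlap. Below them came miniSOX in 2i and FNV in SL, whose ranges overlapped, and then FNV in 2i and miniSOX in SL, whose ranges also overlapped.

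For Nr0b1 the fitted log2 difference from SOX2 was -3.78 ± 0.69 (SE) in miniSOX and -5.74 ± 0.53 in FNV in 2i. In SL it was -8.69 ± 0.88 in miniSOX and -5.13 ± 0.75 in FNV. Here and below these are differences of log2(score + 1), which understate a change at low scores. Against NTC, the Nr0b1 differences were -4.97 ± 0.75 in miniSOX and -6.93 ± 0.58 in FNV in 2i, and -9.25 ± 0.88 in miniSOX and -5.69 ± 0.75 in FNV in SL. Within the deposit sets, FNV in 2i differed from SOX2 by -7.44 in the first and -4.04 in the second, and miniSOX by -3.02 in the second. The rescued SOX2 line was itself below NTC for Nr0b1, by -1.19 ± 0.58 in 2i and -0.56 ± 0.75 in SL.

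Tcl1 lies on chromosome 12 at 105216750 to 105222793 on the minus strand, with 6 annotated transcripts and 4 exons in the longest. In 2i the Tcl1 score was 63 and 72 in miniSOX and 12, 7, 44 and 101 in FNV, against 855, 949, 720 and 722 in SOX2 and 1351, 1293 and 376 in NTC. All 6 libraries of the SOX17-based lines were below all 7 of the others. In SL the score was 164 and 155 in miniSOX and 791 and 802 in FNV, against 793 and 927 in SOX2 and 512 and 555 in NTC. There only miniSOX was low, and both FNV libraries lay above both NTC libraries. The 4 highest group means, of NTC in 2i, SOX2 in SL, SOX2 in 2i and FNV in SL, each overlapped with the next in range. NTC in SL and miniSOX in SL followed without overlap, and miniSOX and FNV in 2i were lowest and overlapped.

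From SOX2, Tcl1 differed by -3.79 ± 0.79 (log2, SE) in miniSOX and -4.94 ± 0.61 in FNV in 2i, and by -2.87 ± 1.0 in miniSOX and -0.11 ± 0.86 in FNV in SL. Against NTC, the Tcl1 differences were -3.97 ± 0.86 in miniSOX and -5.12 ± 0.66 in FNV in 2i. In SL they were -2.19 ± 1.0 in miniSOX and 0.58 ± 0.86 in FNV. The size in FNV depended on the set, since the difference from SOX2 in 2i was -6.47 in the first set and -3.41 in the second. Without the p31 library of NTC, the differences from NTC in 2i were -5.48 in miniSOX and -6.26 in FNV.

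Nr5a2 lies on chromosome 1 at 136842571 to 136960448 on the minus strand, with 6 annotated transcripts and 9 exons in the longest. In 2i its score was 781 and 927 in miniSOX and 783, 766, 1341 and 1385 in FNV, against 438, 479, 1211 and 1496 in SOX2 and 1060, 1162 and 2253 in NTC. Within each line that had both sets, the Nr5a2 scores of the second set were higher than those of the first. FNV lay above SOX2 in the first set and between its 2 values in the second. In SL the score was 165 and 185 in miniSOX and 294 and 214 in FNV, against 470 and 444 in SOX2 and 316 and 280 in NTC. In SL both SOX17-based lines were below SOX2, and FNV overlapped with NTC.

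The Nr5a2 difference from SOX2 was -0.46 ± 0.18 (log2, SE) in miniSOX and 0.39 ± 0.14 in FNV in 2i. In SL it was -2.52 ± 0.23 in miniSOX and -0.86 ± 0.20 in FNV. Against NTC, Nr5a2 differed by -1.49 ± 0.20 in miniSOX and -0.64 ± 0.15 in FNV in 2i, and by -1.91 ± 0.23 in miniSOX and -0.25 ± 0.20 in FNV in SL. The miniSOX values in SL depend on the set term, and without it they were -1.38 against SOX2 and -0.76 against NTC. In 2i without that term the miniSOX difference was 0.12 from SOX2 and -0.72 from NTC. Within the sets, FNV in 2i differed from SOX2 by 0.76 in the first and 0.02 in the second. SOX2 differed from NTC by -1.03 ± 0.15 in 2i and 0.62 ± 0.20 in SL.

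Gbx2 lies on chromosome 1 at 89927956 to 89931179 on the minus strand, with 2 annotated transcripts and 2 exons in the longest. The span of the annotated gene D130058E05Rik, on the plus strand, overlaps it, and overlap of their exons was not checked. No source used here says whether counting was stranded, so some reads may not have been told apart between the 2 genes. In 2i the Gbx2 score was 5 and 9 in miniSOX and 6, 3, 4 and 17 in FNV, against 21, 16, 37 and 28 in SOX2 and 35, 27 and 408 in NTC. These are low scores, and the p31 library of FNV passed the lowest SOX2 library. The p31 library of NTC stood far above the other 2. In SL the Gbx2 score was 2 and 6 in miniSOX and 22 and 35 in FNV, against 127 and 130 in SOX2 and 73 and 94 in NTC. The SL groups of the SOX17-based lines did not overlap with those of SOX2 or NTC.

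For Gbx2 the difference from SOX2 was -2.47 ± 0.69 (log2, SE) in miniSOX and -1.84 ± 0.53 in FNV in 2i. In SL it was -6.35 ± 0.88 in miniSOX and -2.17 ± 0.75 in FNV. Without the set term the Gbx2 value of miniSOX in SL was -4.82. For Gbx2 that term rests in part on the p31 library of NTC in 2i, at 408 against 27 and 35 in the first set. From the first set to the second, the mean in 2i went from 4.5 to 10.5 in FNV and from 18.5 to 32.5 in SOX2. Gbx2 comparisons that do not include NTC in 2i were not examined without that library. Against NTC in 2i, the Gbx2 differences of -4.28 ± 0.75 in miniSOX and -3.65 ± 0.58 in FNV became -2.85 in miniSOX and -2.57 in FNV without the p31 library of NTC. In SL they were -5.72 ± 0.88 in miniSOX and -1.54 ± 0.75 in FNV.

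**Figure D2:**
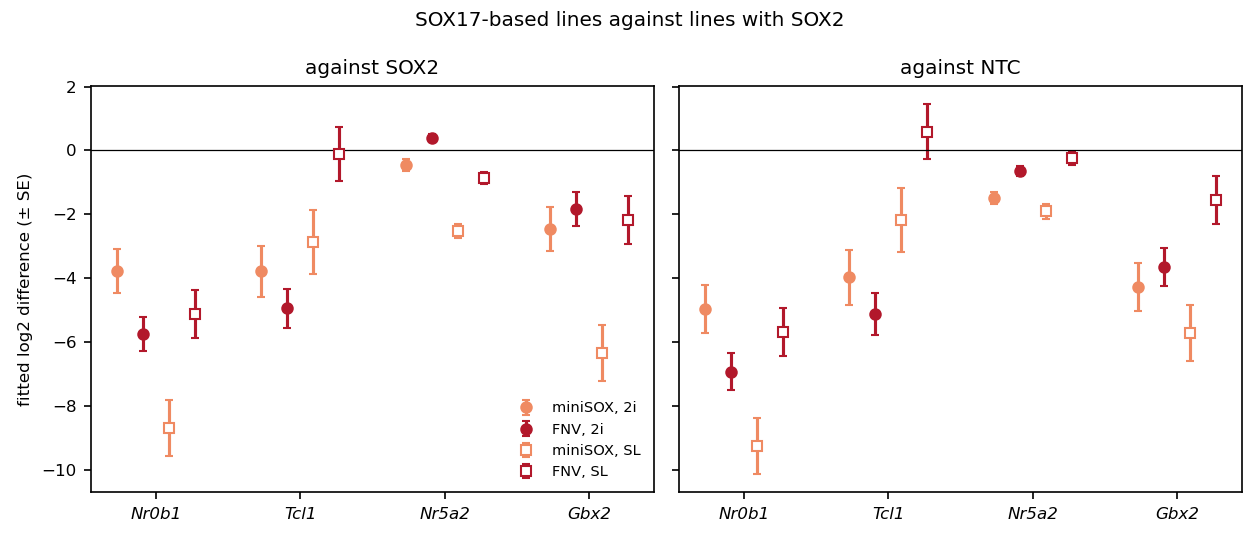
Fitted difference in log2(score + 1) with its standard error for miniSOX (orange) and FNV (red) against SOX2 (left) and NTC (right), in 2i (filled circles) and SL (open squares). Nr0b1 is below 0 throughout, Tcl1 in FNV in SL is at -0.11 against SOX2 and 0.58 against NTC, and Nr5a2 in FNV in 2i is at 0.39 against SOX2.

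Per kilobase of the longest transcript, Tcl1 was the highest of the genes in the SOX2 line in 2i, at a mean score of 580.5 per kilobase. In the same group Nr5a2 had 191.4, Nr0b1 127.8 and Gbx2 11.9 per kilobase. In FNV in 2i the order was led by Nr5a2, at 225.8 per kilobase, with 29.3 for Tcl1, 3.51 for Gbx2 and 2.77 for Nr0b1. No source used here says whether the score was already scaled to transcript length, so the order between genes may not hold.

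The medium moved the 4 genes in different directions, and in different lines. This comparison asks how each gene responded to the 2i inhibitors within a line, and it was tested with limma across all genes with Benjamini-Hochberg adjustment. Of all genes, 33.4% passed (adjusted p under 0.05) in miniSOX, 40.6% in FNV, 44.9% in SOX2 and 24.6% in NTC. Of the 4 genes, Nr0b1 and Nr5a2 passed in miniSOX, all 4 passed in FNV, Nr0b1 and Gbx2 passed in SOX2, and Nr5a2 passed in NTC. Numbered replicates were also averaged to 1 value per group, with the unnumbered libraries kept separate. Among all tests of the 4 genes, only the Nr5a2 changes in miniSOX and FNV then remained called.

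Nr5a2 rose in 2i relative to SL in 3 of the 4 lines. Its log2 change was 2.28 ± 0.20 (SE, limma adjusted p = 7.92e-07) in miniSOX, 1.46 ± 0.18 (adjusted p = 1.61e-05) in FNV and 1.86 ± 0.18 (adjusted p = 6.81e-06) in NTC. In SOX2 the Nr5a2 change was 0.21 ± 0.18 (adjusted p = 0.37), and within the first deposit set it was 0.00, against 1.62 in FNV and 1.90 in NTC. The interaction of medium and line, SOX2 minus NTC, was -1.65 ± 0.25 for Nr5a2 (adjusted p = 0.000528), where 18.8% of all genes passed, and -1.89 within the first set. Without the set term this interaction was -1.46 and did not pass, and its adjusted p over all alternatives ranged from 0.000133 to 0.232.

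Nr0b1 was lower in 2i in FNV, SOX2 and NTC and higher in miniSOX. Its log2 change was 3.02 ± 0.75 (SE, limma adjusted p = 0.00607) in miniSOX, -2.50 ± 0.69 (adjusted p = 0.00893) in FNV and -1.89 ± 0.69 (adjusted p = 0.0367) in SOX2. In NTC it was -1.26 ± 0.70 (adjusted p = 0.214). For miniSOX the scores behind the change in Nr0b1 were 21 and 17 in 2i and 1 and 2 in SL, all far below SOX2 and NTC. These calls rested on single libraries. The call in miniSOX was lost without SL replicate 1 of miniSOX, and that in FNV without SL replicate 1 of FNV. The call in SOX2 was lost without its p21 or p31 library or either SL library. Without replicate 1 of FNV in 2i, where Nr0b1 is listed at 0, the FNV change was -1.59. Within the first set, the change was -3.44 in FNV, -1.13 in SOX2 and -1.08 in NTC.

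Tcl1 fell in 2i in FNV, with a log2 change of -5.15 ± 0.79 (SE, limma adjusted p = 0.000125). The Tcl1 score in FNV was 7 to 101 in 2i and 791 to 802 in SL. In miniSOX the change was -1.23 ± 0.86 (adjusted p = 0.304), in SOX2 -0.31 ± 0.79 (adjusted p = 0.778) and in NTC 0.55 ± 0.80 (adjusted p = 0.693). Within the first set, Tcl1 changed by -6.29 in FNV, 0.07 in SOX2 and 1.31 in NTC, and there the rise in NTC passed (adjusted p = 0.0011, with a range of 0.000486 to 0.996 over all alternatives). Within the second set alone, the change of -1.23 in miniSOX passed at an adjusted p of 0.0497, with 0.000509 to 0.741 over all alternatives.

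Gbx2 fell in 2i in FNV, with a log2 change of -2.79 ± 0.69 (SE, limma adjusted p = 0.00457), and in SOX2, with -3.12 ± 0.69 (adjusted p = 0.00197). In miniSOX the Gbx2 change was 0.76 ± 0.75 (adjusted p = 0.489), with scores of 5 and 9 in 2i, against 2 and 6 in SL. The value in NTC was -0.68 ± 0.70 (adjusted p = 0.547), or -1.40 without the p31 library. Within the first set, Gbx2 changed by -2.44 in FNV, -2.74 in SOX2 and -1.40 in NTC, and the last then passed (adjusted p = 0.0109, with 0.0109 to 0.964 over all alternatives). Without the set term the FNV value was -2.02 and did not pass.

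**Figure D3:**
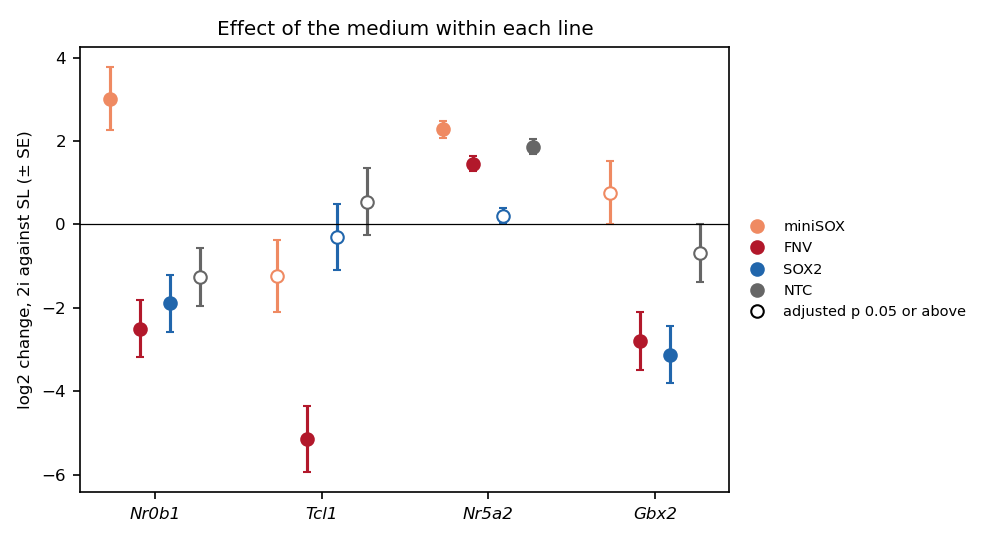
Change in log2(score + 1) of each gene in 2i against SL, with its standard error, within miniSOX, FNV, SOX2 and NTC. Filled points passed the limma test at an adjusted p under 0.05 and open points did not. Nr5a2 is above 0 in all 4 lines, from 0.21 in SOX2 to 2.28 in miniSOX, and Nr0b1 is above 0 only in miniSOX.

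The 2 SOX17-based lines differed from each other in SL in 3 of the 4 genes. Relative to FNV, Gbx2 was lower in miniSOX, at -4.18 ± 0.88 (log2, SE, limma adjusted p = 0.00577), as were Nr0b1, at -3.56 ± 0.88 (adjusted p = 0.0144), and Nr5a2, at -1.66 ± 0.23 (adjusted p = 0.000324). For Tcl1 the difference was -2.76 ± 1.0 (adjusted p = 0.0804), although the scores of 164 and 155 in miniSOX lay well below 791 and 802 in FNV. Among all genes 15.2% passed in this comparison. In SL, miniSOX and FNV share no deposit set, so line and set cannot be told apart except through the 2i set term. Without that term, Gbx2 (-2.65) and Nr5a2 (-0.52) no longer passed, and Nr0b1 (-2.94) did. For Gbx2 the term rests in part on the high p31 library of NTC, which was not left out on its own here. In the fit with the term, the call for Nr0b1 was lost without SL replicate 1 of FNV or of miniSOX.

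In 2i, where 7.66% of all genes passed, miniSOX against FNV gave a called difference for Nr5a2 only, at -0.84 ± 0.18 (log2, SE, limma adjusted p = 0.0141). For Nr0b1 it was 1.96 ± 0.69 (adjusted p = 0.0936), for Tcl1 1.15 ± 0.79 (adjusted p = 0.411) and for Gbx2 -0.64 ± 0.69 (adjusted p = 0.644). Within the second set, the values were -0.68 for Nr5a2, 1.02 for Nr0b1, 0.01 for Tcl1 and -0.29 for Gbx2, and none passed. The Nr5a2 call was lost without either miniSOX library, and Nr0b1 passed without the p21 or the p31 library of FNV.

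The response to the medium was therefore compared between miniSOX and FNV directly. The interaction, miniSOX minus FNV, was 5.52 ± 1.02 for Nr0b1 (log2, SE, limma adjusted p = 0.00275), 3.92 ± 1.16 for Tcl1 (adjusted p = 0.0418), 3.54 ± 1.02 for Gbx2 (adjusted p = 0.0349) and 0.82 ± 0.27 for Nr5a2 (adjusted p = 0.0608). Of all genes 11.9% passed. The call for Nr0b1 held when any 1 of the 10 miniSOX and FNV libraries was left out. The SOX2 and NTC libraries in 2i, on which the set term also rests, were not left out here. Tcl1 lost its call without any 1 of the numbered libraries of either line. Gbx2 lost it without replicate 2 of FNV in 2i, either miniSOX library in 2i, either FNV library in SL or replicate 1 of miniSOX in SL. The score of Sox17 itself also differed between the media. In miniSOX it was 1813 and 1953 in 2i, against 4138 and 4179 in SL. In FNV it was 1792 to 3301 in 2i, against 13693 and 30391 in SL. Its part in these changes was not tested.

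Other genes of the naive network were compared as a background, with the 4 genes left out. Of 13 such genes, in miniSOX against SOX2 in 2i, 4 passed as higher and 1 as lower, against 7.32% and 7.57% of all genes. In FNV against SOX2 in 2i, 2 passed as higher and 6 as lower, against 12.4% and 12.9% of all genes. Dppa3, which protects methylated DNA in the early embryo, was higher in both, by 2.25 ± 0.28 in miniSOX and 2.50 ± 0.22 in FNV (log2, SE, limma adjusted p = 0.000135 in miniSOX and 2.12e-06 in FNV). Klf2, a Kruppel-like factor of the naive state, was lower in both, at -0.85 ± 0.21 in miniSOX and -1.14 ± 0.16 in FNV (adjusted p = 0.016 and 0.000161). The median over the list was -0.15 in miniSOX and -0.14 in FNV, against -0.01 over all genes in each. The counts in miniSOX were 1 higher and 0 lower without either of its 2i libraries, and 3 were lower without the p31 library of SOX2. Within the second deposit set alone, they were 1 higher and 0 lower in miniSOX, and 1 higher and 2 lower in FNV.

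In SL most of the naive list was higher in FNV. In FNV against SOX2, 10 of the 13 passed as higher and 0 as lower, against 10.2% and 11.2% of all genes, with a list median of 1.12. Nanog, a core naive factor, was higher by 1.83 ± 0.15 (log2, SE, limma adjusted p = 2.39e-06) and Klf4 by 2.34 ± 0.26 (adjusted p = 2.68e-05). In miniSOX against SOX2 in SL, 0 passed as higher and 4 as lower, against 10.4% and 11.2% of all genes, with a median of -0.02. The 4 were Tdh, Esrrb, Tbx3 and Prdm14, between -0.51 and -0.74, and only 1 remained called without SL replicate 1 of miniSOX and 2 without SL replicate 1 of SOX2. With numbered replicates averaged, the calls among the 13 were lost in both lines in SL and in miniSOX in 2i. Most were lost in FNV in 2i, and fewer of all genes passed in each of these comparisons.

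**Figure D4:**
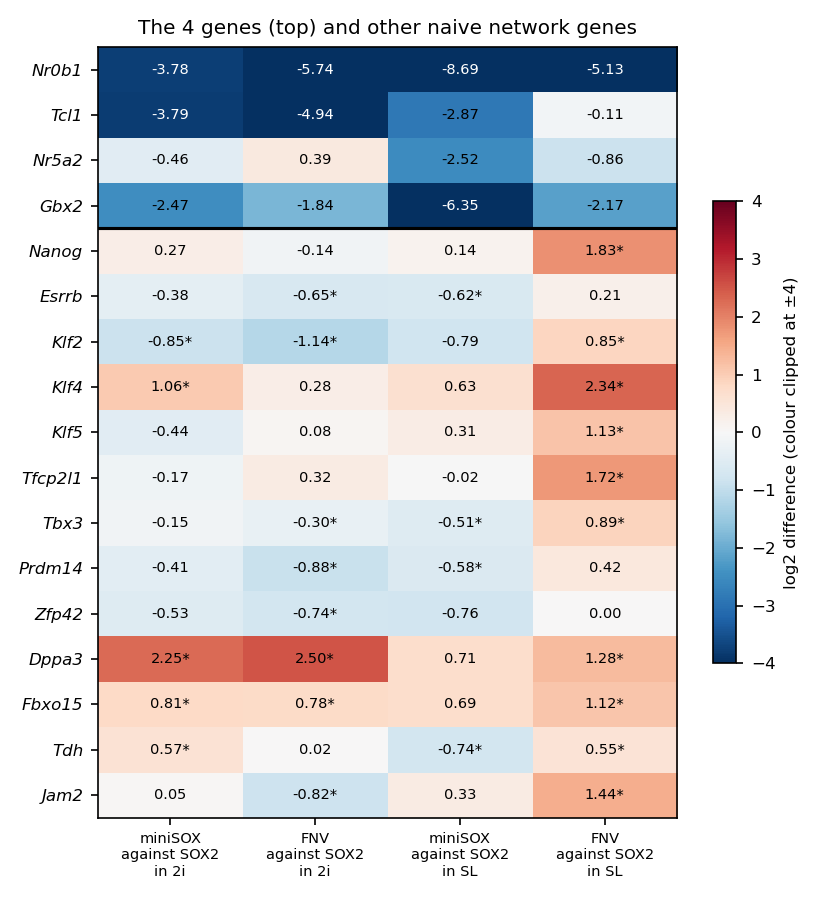
Fitted log2 differences of miniSOX and FNV against SOX2 in 2i and in SL for the 4 genes (above the line) and 13 other naive network genes. An asterisk marks an adjusted p under 0.05, given only below the line, and colours are clipped at 4 in either direction. In FNV in SL most of the network genes are above 0, up to 2.34 for Klf4. There Nr0b1 is at -5.13, Tcl1 at -0.11, Nr5a2 at -0.86 and Gbx2 at -2.17.

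The change of the naive list with the medium was also set beside the 4 genes. In 2i against SL, 11 of 13 passed as higher in miniSOX (17.0% of all genes), 5 in FNV (20.3%), 11 in SOX2 (22.3%) and 9 in NTC (11.9%). As lower, 0 passed in miniSOX (16.4% of all genes), 3 in FNV (20.4%), 0 in SOX2 (22.5%) and 0 in NTC (12.8%). The FNV counts were 3 higher without either of its SL libraries, and 0 or 1 lower without SL replicate 1 or 2 or without replicate 1 or 2 in 2i. With numbered replicates averaged, which leaves 1 value per group in SL, the calls in FNV were lost in both directions. Fewer of the list passed as higher in miniSOX, SOX2 and NTC, and fewer of all genes passed in every line. The list median was 1.92 in miniSOX, 0.36 in FNV, 1.18 in SOX2 and 1.17 in NTC. The change of Nr5a2 had the same sign in all 4 lines, those of Nr0b1 and Gbx2 in miniSOX, and that of Tcl1 in NTC.

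Genes of the pathways in which the 4 act were counted against SOX2 in the same way. Some are also in the naive list, so the counts are not separate results. Klf4 and Tfcp2l1 are shared with the LIF and STAT3 list. Nanog and Fbxo15 are shared with the OCT4 and SOX2 targets, and Esrrb with the nuclear receptors. Of 11 LIF and STAT3 pathway genes, 1 was higher and 4 lower in miniSOX in 2i (7.32% and 7.57% of all genes), and 0 higher and 4 lower in FNV in 2i (12.4% and 12.9%). Lifr, the LIF receptor, and Il6st, its signalling partner, were lower in both lines. Lifr differed by -2.74 ± 0.16 in miniSOX and -2.47 ± 0.12 in FNV (log2, SE, limma adjusted p = 8.78e-08 and 7.71e-09), and Il6st by -0.43 ± 0.07 in miniSOX and -0.68 ± 0.05 in FNV (adjusted p = 0.000711 and 5.45e-07). In SL, 3 were higher and 2 lower in miniSOX (10.4% and 11.2% of all genes), and 6 higher and 2 lower in FNV (10.2% and 11.2%). The 2 that were lower were again Lifr, by -1.94 ± 0.20 in miniSOX and -1.04 ± 0.17 in FNV, and Il6st, by -1.01 ± 0.09 in miniSOX and -0.63 ± 0.07 in FNV. Junb, an AP-1 subunit, led the higher ones in miniSOX, by 2.99 ± 0.58 (adjusted p = 0.00244). The list median was -0.55 in miniSOX and -0.18 in FNV in 2i, and -0.02 in miniSOX and 0.97 in FNV in SL. Leaving out a single miniSOX library in 2i gave 0 higher and 2 lower there. The higher counts in SL were 1 in miniSOX without SL replicate 1 or 2 of miniSOX or replicate 2 of SOX2, and 3 in FNV without SL replicate 2 of SOX2.

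Of 16 other nuclear receptor genes measured, 1 was higher and 2 lower in miniSOX in 2i (7.32% and 7.57% of all genes), and 3 higher and 3 lower in FNV in 2i (12.4% and 12.9%). The counts in 2i lie close to these shares and are no result about the list. In SL, 0 were higher and 4 lower in miniSOX (10.4% and 11.2% of all genes), and 0 higher and 5 lower in FNV (10.2% and 11.2%). Rarg, a retinoic acid receptor, was lower in SL by -1.12 ± 0.28 in miniSOX and -1.66 ± 0.24 in FNV (log2, SE, limma adjusted p = 0.0118 and 0.000303). The median was -0.19 in miniSOX and -0.09 in FNV in 2i, and -0.13 in miniSOX and -0.41 in FNV in SL. Without 1 library, the lower count in FNV in SL was 3 for each of the 4 libraries. That in miniSOX in SL was 0 without replicate 1 of miniSOX, 2 without its replicate 2 and 1 without replicate 1 of SOX2. In miniSOX in 2i the higher count was 0 without either miniSOX library or without replicate 1, replicate 2 or p21 of SOX2, and the lower count was 0 without replicate 1 and 1 without replicate 2 of miniSOX.

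Of 14 measured genes of the TCL1 family and AKT pathway, 0 were higher and 1 lower in miniSOX in 2i (7.32% and 7.57% of all genes), and 4 higher and 2 lower in FNV in 2i (12.4% and 12.9%). In SL, 1 was higher and 4 lower in miniSOX (10.4% and 11.2% of all genes), and 1 higher and 3 lower in FNV (10.2% and 11.2%). Apart from the higher count in FNV in 2i and the lower count in miniSOX in SL, these lie close to the shares of all genes and are no result about the list. Pdpk1, the kinase that phosphorylates AKT at the membrane, was lower in miniSOX, at -0.74 ± 0.16 in 2i and -0.67 ± 0.21 in SL (log2, SE, limma adjusted p = 0.0069 and 0.0307). List medians lay between -0.19 and 0.20. In miniSOX the lower count in 2i was 0 without its replicate 1, and in SL the higher count was 0 without any 1 of the 4 libraries and the lower count 1 without either miniSOX and 2 without either SOX2 library. In FNV the lower count in 2i was 1 without replicate 1, replicate 2 or p21 of either line. In SL its higher count was 0 without replicate 1 of FNV or either SOX2 library, and its lower count 0 without replicate 2 of FNV and 1 without replicate 1 of SOX2. Tcl1b2, a relative of Tcl1 that lies 61525 bases from it, scored 0 to 39 in all libraries. It differed from SOX2 in 2i by -1.87 ± 1.01 in miniSOX and -2.21 ± 0.77 in FNV (log2, SE, limma adjusted p = 0.245 and 0.049). In SL the Tcl1b2 differences had the other sign, at 1.34 ± 1.28 in miniSOX and 2.37 ± 1.09 in FNV (adjusted p = 0.495 and 0.145).

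Of 11 genes known as targets of OCT4 and SOX2, 4 were higher and 0 lower in miniSOX in 2i (7.32% and 7.57% of all genes), and 3 higher and 2 lower in FNV in 2i (12.4% and 12.9%). In SL, 2 were higher and 0 lower in miniSOX (10.4% and 11.2% of all genes), and 4 higher and 0 lower in FNV (10.2% and 11.2%). Spp1, which encodes osteopontin, was higher in each, by 0.76 ± 0.17 in miniSOX and 0.43 ± 0.13 in FNV in 2i (log2, SE, limma adjusted p = 0.0089 and 0.0293). In SL, Spp1 was higher by 1.72 ± 0.22 in miniSOX and 2.60 ± 0.19 in FNV (adjusted p = 0.000109 and 6.92e-07). The median of the list was 0.22 in miniSOX and -0.07 in FNV in 2i, and 0.56 in miniSOX and 0.19 in FNV in SL. The higher count in miniSOX in 2i was 0 without the set term, 0 without either miniSOX library and 2 without the p31 library of SOX2, and in FNV in 2i it was 1 without replicate 1 of SOX2. The lower count in FNV in 2i was 1 without replicate 2, p21 or p31 of FNV or replicate 1, replicate 2 or p21 of SOX2.

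Formative genes mark the step after the naive state. Of 12 measured, 1 was higher and 1 lower in miniSOX in 2i (7.32% and 7.57% of all genes), and 2 higher and 5 lower in FNV in 2i (12.4% and 12.9%). In SL, 3 were higher and 2 lower in miniSOX (10.4% and 11.2% of all genes), and 1 higher and 2 lower in FNV (10.2% and 11.2%). The counts in miniSOX in 2i and in FNV in SL lie close to these shares and are no result about the list. Otx2, a homeobox factor of formative cells, was lower in both lines and media, from -1.46 ± 0.28 in miniSOX in 2i to -2.98 ± 0.31 in FNV in SL (log2, SE, limma adjusted p = 0.00337 and 1.65e-05). The higher count in miniSOX was 0 in 2i without either miniSOX library and 1 in SL without replicate 1 of miniSOX or 2 of SOX2, and its lower count in SL was 1 without replicate 1 of miniSOX. In FNV in SL the higher count was 0 without replicate 1 of SOX2, and the lower count 1 without any 1 of the 4 libraries. Within a line, 11 of the 12 genes fell in 2i against SL in miniSOX (16.4% of all genes), 12 in FNV (20.4%), 10 in SOX2 (22.5%) and 8 in NTC (12.8%). In NTC 2 of the 12 rose (11.9% of all genes), and 0 in the other lines. None of the 12 rose in NTC without either of its SL libraries. With numbered replicates averaged, which leaves 1 value per group in SL, the falls called in NTC were lost. Fewer were called in miniSOX, FNV and SOX2, and fewer of all genes passed in every line. Gbx2 fell in 2i in FNV and SOX2, as given above.

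Markers of other cell types were set beside these groups by their summed scores and by the number that passed against SOX2. Of all genes, 10.4% passed as higher and 11.2% as lower in miniSOX in SL, and 10.2% and 11.2% in FNV in SL. In 2i these shares were 7.32% and 7.57% in miniSOX and 12.4% and 12.9% in FNV. Counts of 0 or 1 below lie close to these shares and are no result about a list. The summed score of 10 trophectoderm markers was 18414 and 18529 in miniSOX in SL and 2503 and 2531 in FNV in SL, against 1699 and 2591 in SOX2 and 11040 and 11179 in NTC in SL. In 2i it was 2601 and 2667 in miniSOX and 5301 to 7379 in FNV, against 830 to 1471 in SOX2 and 1256 to 2808 in NTC. Of the 10, 5 were higher and 0 lower in miniSOX in SL and 1 higher and 0 lower in FNV in SL. In 2i, 3 were higher and 1 lower in miniSOX, and 6 higher and 1 lower in FNV. Cdx2, a defining marker of the trophectoderm, was at 0 in both FNV libraries in SL. The sum over 8 of 12 extraembryonic endoderm markers that were measured was 12675 and 12829 in miniSOX and 9233 and 10503 in FNV in SL, against 6335 and 7109 in SOX2 and 8473 and 8813 in NTC. In 2i that sum was 9559 and 9648 in miniSOX and 11542 to 13185 in FNV, against 5672 to 7976 in SOX2 and 6318 to 8038 in NTC. Of the 8, 1 was higher and 3 lower in miniSOX in SL, and 0 higher and 4 lower in FNV in SL, where the list median was -0.47, so the sums and the counts ran opposite ways in SL. Gata6, an endoderm transcription factor, scored 17 and 8 in miniSOX and 1 and 0 in FNV in SL, against 165 and 108 in SOX2. In 2i, 1 was higher and 0 lower in miniSOX, and 5 higher and 0 lower in FNV. For 10 of 12 fibroblast markers the SL sums were 1828 and 2017 in miniSOX and 1007 and 1054 in FNV, against 255 and 303 in SOX2 and 537 and 584 in NTC, and in 2i no library exceeded 354. Of the 10, 5 were higher in miniSOX and 3 in FNV in SL with 0 lower in either, and in 2i 2 were higher and 0 lower in miniSOX and 3 higher and 1 lower in FNV. Lum was at 0 in all SL groups, and Dcn in SOX2 and NTC in SL. The part of these markers in the low Nr0b1, Gbx2, Tcl1 and Nr5a2 scores of miniSOX in SL was not tested.

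Across the 21 libraries, log2 scores of Nr0b1 correlated with those of Tcl1 (Pearson 0.78, Spearman 0.64) and of Gbx2 (0.83 and 0.83), and those of Tcl1 with Gbx2 (0.66 and 0.58). Nr5a2 stood apart, at 0.15 with Nr0b1, -0.16 with Tcl1 and 0.14 with Gbx2. These are descriptions over libraries that share lines, media and deposit sets. The genes were picked as lower in the SOX17-based lines, where the Sox2 score is low too. Correlations among them and with Sox2 can follow from that choice and are no independent support. Among 11133 genes with a mean score of at least 50, those most like Nr0b1 by Pearson correlation were Platr15 (0.930), Cdca7 (0.903), Pot1a (0.902) and Sox2 (0.899). Those most like Tcl1 were Slco4c1 (0.959), Dgkh (0.937), Sept1 (0.932) and Ralgps2 (0.930). For Nr5a2 they were Shf (0.944), Lig1 (0.921), Efna2 (0.911) and Mob3b (0.904), and for Gbx2 they included Hmces (0.906), Mllt3 (0.865) and Ash2l (0.857).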

How the data were processed

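RNA was measured in 21 libraries of 1 mouse embryonic stem cell line. Per the labels' protocols, RNA was extracted with Trizol and mRNA selected on oligo(dT) beads. RSEM, Bowtie2 2.0 and the mm10 genome are named in the submitters' processing notes. The deposited values are a score: whole numbers that the authors normalized between libraries and rounded, since, rank by rank, the libraries differ by no more than 3. No source used here names the normalization software. Depth is unknown and no counting interval was computed. A count test had been planned only for raw counts, so limma 3.58.1 (R 4.3.3, trend and robust) was used on log2(score + 1), with 1 fit of 21 libraries, terms for 8 groups and deposit set, 12 residual degrees of freedom, and Benjamini-Hochberg adjustment over 16443 genes, called under 0.05. It was tested on simulated data. Groups came from the labels: 16 columns matched a sample and 5 only a group. Coordinates are from GENCODE M21. The 4 genes and all lists were chosen with earlier results of these data known. Named genes were the members, Sox2, Sox17 and Pou5f1, the 4 closest correlates of each (predicted genes left out), and per list up to 5 genes with the smallest adjusted p, so list members not named here may also have passed. A few genes that the rule selects are not reported here. Not measured were Nr2f1 and Nr5a1 (nuclear receptors), Tcl1b1, Tcl1b3, Tcl1b4 and Tcl1b5 (TCL1 family), Fgf8 and Gbx1 (formative), Twist2 and S100a4 (fibroblast), and Gata4, Sox7, Foxa2 and Amn (endoderm). Alternatives were other pseudocounts, a filter at a mean of 50, centring, no set term, a replicate block and single deposit sets. Each library of the groups compared was also left out in turn. Averaged replicates were added after seeing the data.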

Additional observations from a re-analysis of the deposited data

Results flagged for a closer look

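The response of Nr5a2 to the medium differed between SOX2 and NTC, with an interaction of -1.65 ± 0.25 on the log2 scale (SE, limma adjusted p = 0.000528). The change in 2i against SL was 0.21 in SOX2 and 1.86 in NTC, with means of 906.0 in 2i and 457.0 in SL in SOX2 and of 1491.7 in 2i and 298.0 in SL in NTC. The means carry no set term. Without that term the Nr5a2 change in SOX2 was 0.78, and the interaction was -1.46 and did not pass (limma adjusted p = 0.194). Within the first set alone they were 0.00 and -1.89.

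The responses of Nr0b1, Tcl1 and Gbx2 to the medium differed between miniSOX and FNV, by 5.52, 3.92 and 3.54 on the log2 scale (limma adjusted p = 0.00275, 0.0418 and 0.0349). Every Nr0b1 library of miniSOX was higher in 2i, at 21 and 17, than in SL, at 1 and 2, a change of 3.02. In SOX2 and NTC every Nr0b1 library was lower in 2i than in SL, with changes of -1.89 and -1.26. The difference of miniSOX from SOX2 and from NTC in this respect was not tested.

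The score of Pou5f1 in the p31 library of FNV in 2i, 12486, stood apart from 9718, 9718 and 10050 in the other 3 libraries of its group. It was the only 1 of 14 groups of values checked in which a sample stood apart in this way, and chance gives about 1 in 20.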

How the results depend on the processing

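The 4 genes gave 32 tests, of which 17 passed. The filter at a mean of 50 and centring on the median log ratio kept the direction and the side of the threshold of all 32. With a pseudocount of 0.1, Nr0b1 no longer passed for 2i against SL in SOX2 (-2.23) and miniSOX (3.64) or for miniSOX against FNV in SL (-4.84). With 10, Nr0b1 passed for 2i against SL in NTC (-1.04) and the Gbx2 interaction of miniSOX minus FNV (2.07) did not.

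Without the set term, calls were lost for 2i against SL of Nr0b1 in SOX2 (-1.58) and Gbx2 in FNV (-2.02), for miniSOX against FNV of Nr5a2 in 2i (-0.27) and SL (-0.52) and Gbx2 in SL (-2.65), and for the interactions of Nr5a2, SOX2 minus NTC (-1.46), and of Tcl1 (3.69) and Gbx2 (2.78), miniSOX minus FNV. Gbx2 in miniSOX against FNV in 2i turned to 0.13. The genes called were 2680 for 2i against SL in NTC, 276 for miniSOX against FNV in 2i, 2695 and 1944 for FNV against SOX2 in 2i and SL, 1414 for miniSOX against SOX2 in 2i, and 1421 and 1175 for the interactions SOX2 minus NTC and miniSOX minus FNV. The corresponding counts with the term were 4053, 1260, 4150, 3513, 2449, 3095 and 1960. The cause was not tested.

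Replicate numbers did not pair the libraries: over 28 pairs of groups the deviations of same-numbered libraries correlated between -0.09 and 0.09. The fit with the replicate block used only the 16 numbered libraries and had no set term, since the set cannot be separated from the lines among them, so it changed these choices together. In it more genes passed: 6305 for 2i against SL in NTC, 3840 and 6484 for miniSOX against FNV in 2i and SL, 5844 for FNV against SOX2 in SL, 6913 and 6351 for miniSOX against SOX2 in 2i and SL, and 5284 and 4297 for the interactions. Under the block, Tcl1 passed for 2i against SL in NTC (1.31) and miniSOX (-1.23), for miniSOX against FNV in 2i (2.74) and SL (-2.31) and for SOX2 minus NTC (-1.24). Gbx2 passed for 2i against SL in NTC (-1.40), Nr0b1 for miniSOX against FNV in 2i (3.52) and Nr5a2 for the interaction miniSOX minus FNV (0.65). Tcl1 for 2i against SL in SOX2 turned to 0.07, and in miniSOX against FNV in 2i, Nr5a2 turned to 0.14 and Gbx2 to 0.55 under the block. The untested Nr5a2 difference of miniSOX from SOX2 in 2i (-0.46) was 0.89 under it.

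Within the first deposit set, Tcl1 (1.31) and Gbx2 (-1.40) passed for 2i against SL in NTC, as did Tcl1 for SOX2 minus NTC (-1.24), and Tcl1 in SOX2 turned to 0.07. The counts were 5473 for FNV against SOX2 in SL and 4963 for SOX2 minus NTC. Within the second, Tcl1 for 2i against SL in miniSOX (-1.23) passed and Nr5a2 for miniSOX against FNV in 2i (-0.68) did not. The counts were 105 for miniSOX against FNV, 835 for FNV against SOX2 and 1080 for miniSOX against SOX2, all in 2i.

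With numbered replicates averaged, an alternative chosen after seeing the data that leaves fewer values per group, 2 of the 17 calls remained. Those lost were 2i against SL of Nr5a2 in NTC (1.84), Nr0b1 (-2.13) and Gbx2 (-3.29) in SOX2, Nr0b1 (-2.17), Tcl1 (-4.72) and Gbx2 (-2.95) in FNV and Nr0b1 in miniSOX (3.02). Also lost were miniSOX against FNV of Nr5a2 in 2i (-0.79) and of Nr0b1 (-3.54), Nr5a2 (-1.66) and Gbx2 (-4.25) in SL, and the interactions of Nr5a2, SOX2 minus NTC (-1.56), and of Nr0b1 (5.20), Tcl1 (3.49) and Gbx2 (3.70), miniSOX minus FNV. The counts of genes were 660, 1511, 1400 and 140 for 2i against SL in miniSOX, FNV, SOX2 and NTC, 7 and 42 for miniSOX against FNV in 2i and SL, 465 and 80 for FNV against SOX2 in 2i and SL, 34 and 55 for miniSOX against SOX2 in 2i and SL, and 35 and 16 for SOX2 minus NTC and miniSOX minus FNV.

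Of 144 counts of list genes, higher or lower in each comparison, those that moved by over 1.5 times or to or from 0 were 113 with numbered replicates averaged, 59 under the block and 47 without the set term.

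Leaving out 1 library at a time moved counts to 128 to 2995 for miniSOX against FNV in 2i and 1250 to 1705 in SL, 871 to 2230 and 2130 to 2747 for miniSOX against SOX2 in 2i and SL, 1793 to 2563 for FNV against SOX2 in SL, 2106 to 4713 for 2i against SL in NTC, 1135 to 2611 for miniSOX minus FNV and 1946 to 3486 for SOX2 minus NTC. The tests that changed sides of the threshold under it ranged as follows. For miniSOX minus FNV, Tcl1 ranged from 3.14 to 4.33, Gbx2 from 2.93 to 4.16 and Nr5a2 from 0.59 to 1.05, the last passing without SL replicate 2 of FNV. For miniSOX against FNV, Nr0b1 ranged from 1.55 to 2.61 in 2i and from -3.85 to -3.27 in SL, and Nr5a2 from -0.97 to -0.72 in 2i. For 2i against SL, Nr0b1 ranged from 2.73 to 3.31 in miniSOX, -2.79 to -1.59 in FNV and -2.29 to -1.64 in SOX2. No direction reversed among the 4 genes' tests when a library of the groups compared was left out. Depth is unknown, so what it limits could not be assessed, and only 2 libraries per group in SL limit the precision there.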
